A study of Homo sapiens with 6 samples.

Results

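The UBE2 genes encode ubiquitin-conjugating enzymes, called E2 enzymes, and their messenger RNA levels were compared between HT29 cells given a nonspecific control siRNA and HT29 cells given an siRNA against the E3 ubiquitin ligase RNF6. HT29 is an established human colorectal cancer line, labelled wild type in the control arm and RNF6 knockdown in the other, and each arm had 3 sequenced libraries. All cells were at passage 16 to 19. The members were every listed gene symbol that begins with UBE2, except names that end in P and digits (pseudogenes, 41 rows) and names with an antisense suffix (3 rows). This left 43 of 56638 listed symbols, of which 33 had enough reads to be tested, among 14685 genes tested in all.

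Ubiquitin is passed along a chain of enzymes. An E1 enzyme activates it, an E2 enzyme carries it on a cysteine, and an E3 ligase brings the loaded E2 to the substrate. The E2 often sets which kind of chain is built: chains through lysine 48 or lysine 11 mark proteins for the proteasome, and chains through lysine 63 serve in DNA repair and signalling. A few E2 enzymes carry ubiquitin-like proteins, such as SUMO, NEDD8 or ISG15, in place of ubiquitin or beside it. RNF6 is itself a RING-type E3 and needs an E2 to act, and which E2 it used in these cells was not measured.

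Each library had between 6808771 and 11071456 reads assigned to genes. Normalised read counts are given as CPM, gene-assigned reads scaled to a common library size. RNF6 itself held 54.2, 45.1 and 57.6 CPM in the controls, replicates 1 to 3, against 16.4, 16.2 and 16.8 CPM with its siRNA (called knockdown from here), which is lower in all 3 (edgeR adjusted p = 2.12e-06). The labels do not state that replicates were separate cultures, and if they were not, the p-values hold technical spread alone. Of 10 colon epithelial markers, KRT8, KRT18, CDH1, EPCAM and CDX2 were well detected, while CDX1 had 0 reads and CDH17, VIL1 and LGALS4 were near 0. Their summed level was 3181 to 4127 CPM in control and 1624 to 1855 CPM in RNF6 siRNA libraries, and KRT8, KRT18 and KRT20 were called lower. Summed immune markers stayed at or below 0.805 CPM and endothelial markers at or below 2.68 CPM in every library. Summed fibroblast markers ran from 49.4 to 63.9 CPM in control and 68.7 to 82.9 CPM in RNF6 siRNA libraries, nearly all of it COL1A1, with the other 4 near 0. The part of these marker shifts in the results for UBE2 genes was not tested.

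After knockdown, 12 tested UBE2 genes fell, 2 rose and 19 did not pass the test. That is 36.4% lower and 6.06% higher, beside 16.1% lower and 16.6% higher among all genes tested. The largest fall was that of UBE2Q1 (2.14-fold), followed by UBE2V2 (1.93-fold) and UBE2D4 (1.77-fold), and the rises were those of UBE2C (1.75-fold) and UBE2O (1.41-fold). The other falls belonged to UBE2L4, UBE2F, UBE2L3, UBE2Q2, UBE2D3, UBE2G2, UBE2E1, UBE2M and UBE2J2. In these bulk samples, fewer cells of a type and less RNA per cell cannot be told apart. Among the called members only UBE2Q1 passed a fold of 2, and 7 of the 14 called genes changed by less than 1.5-fold. The median log2 fold change of the tested members was -0.12, beside 0.01 for all genes tested, and 26 of the 33 were below 0. For 18 of the 33 the control and knockdown libraries did not overlap, beside 44.2% of all genes tested. Leaving out 1 library at a time gave between 9 and 12 lower and 2 or 3 higher members.

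**Figure D1:**
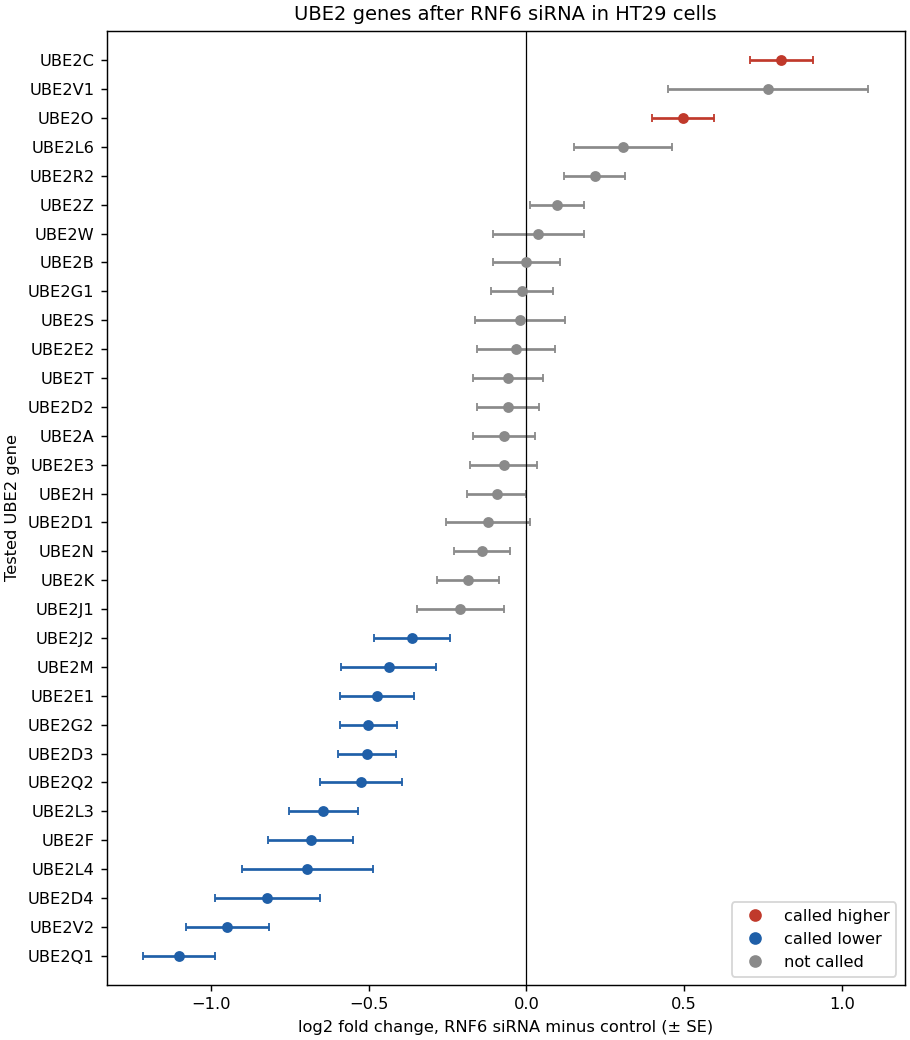
Log2 fold change (knockdown minus control, x axis) of 32 of the 33 tested UBE2 genes, with bars of 1 standard error and colours for the call at an adjusted p below 0.05. The 12 lower genes run from UBE2Q1 to UBE2J2 at -0.36, and UBE2C (0.81) and UBE2O (0.50) are the genes called higher, while UBE2V1 (0.77) has a wide bar and did not pass.

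The filter on low counts did not favour genes high in a single group, since every tested member had at least 17 reads in each library. The 10 members not tested had at most 3 reads over all 6 libraries. Of these, UBE2DNL, UBE2L2, UBE2NL, UBE2QL1, UBE2Q2P4Y and UBE2Q2P5Y had 0 reads, and UBE2F-SCLY, UBE2L5P, UBE2Q2L and UBE2U had 1 to 3. UBE2L4 passed the filter, but GENCODE annotates it as a processed pseudogene, so 32 of the tested members are enzyme or enzyme-like genes. Reads of all members together came to 3014, 3039 and 2979 CPM in the control libraries and 2756, 2769 and 2688 CPM in the knockdown libraries. The sum was thus lower in every knockdown library than in any control library, at 2738 ± 43.2 against 3011 ± 29.9 CPM (SD, n = 3).

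Levels were compared per kilobase of annotated exon, with the exons of all annotated transcripts joined (1.29 kb for UBE2C, 10.1 kb for UBE2D3). The transcripts in use were not measured, so the order between genes is approximate. On this scale UBE2C had the highest level of the family in both groups, at 81.9 CPM per kilobase in control and 143 in knockdown libraries. UBE2T (42.2 in control), UBE2H (39.3), UBE2S (38.5) and UBE2L3 (34.8) came next, and each overlapped its neighbour in this order over the control libraries. The least abundant tested members were UBE2V1 (0.809), UBE2D4 (1.95) and UBE2F (3.35 CPM per kilobase). UBE2C took 3.42%, 3.64% and 3.44% of the reads of all members in the control libraries and 7.32%, 6.14% and 6.75% in the knockdown libraries. UBE2D3 held the largest share of reads in control, between 10.3% and 11.2%, and between 7.97% and 8.62% after knockdown.

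**Figure D2:**
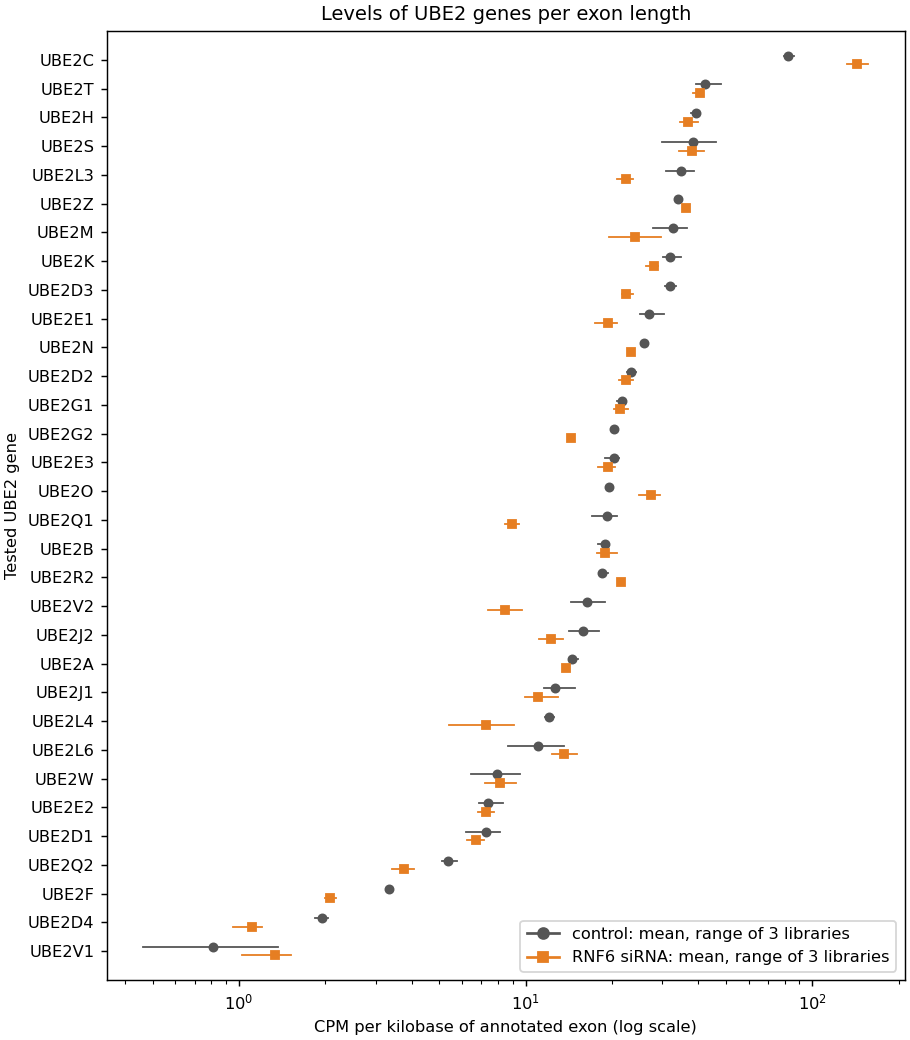
Level of 32 of the 33 tested UBE2 genes in CPM per kilobase of annotated exon (log axis), as the mean of 3 libraries with a line from the lowest to the highest, for control (circles) and knockdown (squares). UBE2C stands highest in both groups, at 81.9 and 143, and UBE2V1 lowest in control, at 0.809.

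Among the E2 enzymes of the anaphase-promoting complex, the ligase that ends mitosis by marking cyclin B and securin for destruction, UBE2C rose and UBE2S did not pass. UBE2C, which starts the chains, measured 103, 111 and 102 CPM across control replicates 1 to 3 and 202, 170.1 and 181 CPM across the knockdown replicates. All 3 knockdown libraries lay above all control libraries, with means of 105 ± 4.61 and 184 ± 16.0 CPM (log2 fold change 0.81, adjusted p = 7.49e-05). UBE2S, which lengthens those chains through lysine 11, measured 83.5, 128 and 110.0 CPM (control) against 117, 95.2 and 106 CPM (knockdown). The UBE2S groups overlapped almost fully, and the spread among controls was wider than the difference between means (log2 fold change -0.02, SE 0.143, adjusted p = 0.936). The difference between the responses of UBE2C and UBE2S was not tested.

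Of 16 tested subunits, activators and inhibitors of the anaphase-promoting complex, 2 were lower and 14 did not pass, beside 16.1% called lower among all genes tested. CDC23, a scaffold subunit, fell 1.80-fold, from 65.4, 59.9 and 64.7 CPM to 33.0, 40.0 and 33.3 CPM (adjusted p = 1.41e-04). CDC16 fell 1.22-fold (adjusted p = 0.0389), a call lost in 4 of the 6 fits with 1 library left out (control replicate 2 or 3, knockdown replicate 1 or 3, up to 0.139), with upper-quartile scaling (0.0504) and without the filter (0.0751). The activator CDC20 measured 198, 238 and 221 CPM (control) against 251, 197 and 221 CPM (knockdown) (log2 fold change 0.03, SE 0.110). Without control replicate 1, 4 of these genes were lower, and without control replicate 2, 1 was higher. CDC20 was named after its values were seen.

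The UBE2D and UBE2E enzymes and UBE2W work with many RING ligases. Of these 8 tested members, 3 fell and the others did not pass, beside 16.1% called lower among all genes tested. UBE2D3 had the most reads of any UBE2 gene and measured 338, 312 and 309 CPM across control replicates 1 to 3 and 219.6, 239 and 218 CPM across the knockdown replicates. Every knockdown library lay below every control library, a fall of 1.42-fold (adjusted p = 0.00118). UBE2D4 fell 1.77-fold from a far lower level and measured 8.64, 9.60 and 9.36 CPM (control) against 5.68, 5.59 and 4.47 CPM (knockdown) (adjusted p = 0.00242). Annotated exons of other genes cover 15.5% of UBE2D4, and the counting rule for such reads is uncertain. For UBE2E1 the control libraries held 93.0, 77.7 and 77.0 CPM and the knockdown libraries 53.5, 60.6 and 64.1 CPM, again without overlap (1.39-fold lower, adjusted p = 0.00775).

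The other UBE2D and UBE2E genes did not pass. UBE2D2 was at 82.8 ± 2.92 CPM in control and 79.6 ± 4.51 CPM in knockdown libraries (SD, n = 3), and UBE2D1 at 25.4 ± 3.45 and 23.3 ± 1.65 CPM. UBE2E2 (24.2 ± 2.60 and 23.7 ± 1.52 CPM) and UBE2E3 (60.5 ± 3.68 and 57.7 ± 4.04 CPM) also overlapped between groups. UBE2W, which attaches ubiquitin to the amino terminus of proteins, varied more between libraries than between groups, from 58.7 to 87.1 CPM in control and from 65.5 to 84.0 CPM in knockdown libraries. Whether UBE2D3 or UBE2E1 differed from these relatives in response was not tested.

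Enzymes of lysine 63 chains and DNA repair gave 1 fall among 6 tested members, beside 16.1% called lower among all genes tested. UBE2V2 lacks the catalytic cysteine and pairs with UBE2N to build lysine 63 chains. It measured 125, 95.4 and 103 CPM across control replicates 1 to 3 and 55.2, 64.2 and 48.9 CPM across the knockdown replicates. The lowest control library was well above the highest knockdown library, and the means were 108 ± 15.2 and 56.1 ± 7.67 CPM (log2 fold change -0.95, SE 0.131, adjusted p = 1.73e-04). Its catalytic partner UBE2N measured 163, 159 and 162 CPM (control) against 143, 149.8 and 146 CPM (knockdown). These groups did not overlap either, but the difference did not pass (log2 fold change -0.14, adjusted p = 0.246), and exons of the neighbour NUDT4 lie over 39.5% of UBE2N.

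UBE2V1, the other partner of UBE2N, had few reads of its own and measured 6.58, 2.23 and 2.87 CPM (control) against 4.95, 7.06 and 7.33 CPM (knockdown). Control replicate 1 was inside the knockdown range and the other controls were below it (log2 fold change 0.77, SE 0.317, adjusted p = 0.0809). Without control replicate 1 UBE2V1 passed as higher (log2 fold change 1.31, adjusted p = 1.61e-04), as it did without knockdown replicate 1 (0.0280), with no low-count filter (0.00658) and by limma-voom (0.0453), between 1.61e-04 and 0.277 over all alternatives. Its level is uncertain, since 42.9% of its exons lie under the read-through gene TMEM189-UBE2V1, whose own row had 0 reads. The H2B and PCNA enzymes UBE2A (76.5 ± 3.42 and 72.9 ± 1.34 CPM, without overlap) and UBE2B (62.0 ± 2.61 and 62.2 ± 5.59 CPM) did not pass. UBE2T, the E2 of the Fanconi repair pathway, was at 69.7 ± 8.08 and 66.9 ± 2.89 CPM and did not pass.

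Endoplasmic reticulum-associated degradation removes misfolded proteins from that compartment. Of 3 tested UBE2 enzymes of this route, 2 were called lower, beside 16.1% among all genes tested. UBE2G2 measured 148, 153 and 152 CPM across control replicates 1 to 3 and 103.9, 108 and 108 CPM across the knockdown replicates, with little spread inside either group (1.41-fold lower, adjusted p = 0.00120). The membrane-anchored UBE2J2 measured 66.5, 84.9 and 72.1 CPM (control) against 63.6, 52.5 and 57.4 CPM (knockdown). Control replicate 1 and knockdown replicate 1 came close to each other, and the fall of 1.29-fold had an adjusted p of 0.0343. Leaving out control replicate 2 (adjusted p = 0.122) or 3 (0.0799) ended that call, as did leaving out knockdown replicate 2 (0.123) or 3 (0.112), between 0.00361 and 0.137 over all alternatives. UBE2J1 overlapped between groups, at 54.4 ± 8.04 and 47.2 ± 7.33 CPM (adjusted p = 0.268).

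Of 13 tested partner genes of the same degradation route, 5 fell and 8 did not pass, beside 16.1% called lower among all genes tested. Those that fell included the ligase genes RNF139 (1.43-fold) and RNF185 (1.35-fold) and the derlin genes DERL2 (1.39-fold) and DERL1 (1.23-fold). DERL1 was named after its values were seen, and its call ended when any 1 library other than control replicate 1 was left out. That call was also lost with no low-count filter (adjusted p = 0.0568). Without knockdown replicate 3 only 2 of the 5 calls held, with DERL2 at an adjusted p of 0.0570 and RNF185 at 0.112.

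Enzymes that carry ubiquitin-like proteins gave 2 falls among 5 tested members, beside 16.1% called lower among all genes tested. Both falls were those of NEDD8 carriers. NEDD8 is attached to cullin proteins and switches on the cullin-RING ligases. UBE2F measured 14.1, 13.9 and 14.5 CPM across control replicates 1 to 3 and 8.43, 8.83 and 9.21 CPM across the knockdown replicates, with tight and separate groups (1.61-fold lower, adjusted p = 0.00206). Its read-through gene UBE2F-SCLY covers 16.2% of its exons. UBE2M measured 50.9, 67.0 and 61.7 CPM (control) against 54.2, 35.8 and 42.2 CPM (knockdown). knockdown replicate 1 lay above control replicate 1, so the groups overlapped, and the 1.35-fold fall had an adjusted p of 0.0413. The call was lost on leaving out control replicate 2 (adjusted p = 0.0751) or 3 (0.121) or knockdown replicate 2 (0.162) or 3 (0.145), and with upper-quartile scaling (0.0511), between 0.00174 and 0.162 over all alternatives.

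UBE2Z and UBE2L6 did not pass. UBE2Z, which takes ubiquitin from the E1 enzyme UBA6, is counted here with the carriers of ubiquitin-like proteins. It was at 195 ± 0.351 and 209 ± 2.34 CPM, separate but only 1.07-fold apart. UBE2L6, the ISG15 carrier, measured 19.1, 29.9 and 23.5 CPM (control) against 33.2, 27.1 and 29.4 CPM (knockdown) (log2 fold change 0.31, adjusted p = 0.149). Without control replicate 2 it passed as higher (adjusted p = 0.0173, between 0.0173 and 0.375 over alternatives).

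Of 12 tested ubiquitin and ubiquitin-like genes, 5 fell and 1 rose, and these counts held when any 1 library was left out. Of all genes tested, 16.1% were called lower and 16.6% higher, the shares to set beside each list of this paragraph. NEDD8 itself fell 1.70-fold, from 17.8, 26.1 and 22.8 CPM to 16.5, 10.6 and 11.8 CPM (adjusted p = 0.00630). SUMO2 rose 1.42-fold, from 70.9, 68.3 and 57.4 CPM to 93.5, 95.5 and 90.5 CPM, while SUMO3 fell 1.53-fold, from 25.0 ± 3.48 to 16.4 ± 0.474 CPM. URM1 (1.69-fold) and, named after their values were seen, ISG15 (1.59-fold) and the autophagy modifier gene ATG12 (1.44-fold) also fell. For the neddylation and cullin genes, 3 of 14 were lower and 1 higher: CUL2 (1.53-fold), the NEDD8 ligase cofactor gene DCUN1D5 (1.58-fold) and ARIH2 (1.26-fold) fell, and DCUN1D4 rose (log2 fold change 0.38). The DCUN1D4 groups overlapped, and its call was lost without control replicate 2 or 3 or knockdown replicate 2 or 3 (up to 0.149). The ARIH2 call ended without control replicate 2 (0.0585) or 3 (0.0780) or knockdown replicate 1 (0.0605) or 3 (0.0871). Among 15 SUMO ligase and protease genes 5 fell, led by the proteases SENP2 (1.78-fold), SENP5 (1.49-fold) and SENP1 (1.57-fold) and the ligase PIAS2 (1.43-fold). SENP3, a gene picked with its values known, fell 1.36-fold with 41.2% of its exons under other genes. Its call ended without control replicate 2 or 3 or knockdown replicate 2 or 3, and with DESeq2 (adjusted p = 0.0605). Without control replicate 1 this list had 6 lower and 2 higher genes, the latter SENP7 (adjusted p = 0.00554) and TOPORS (0.00775), and SENP7 was also higher without knockdown replicate 1 (0.00868) and with no low-count filter (0.00551). SENP7 and TOPORS were picked with their values known.

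UBE2L3 hands ubiquitin to HECT and RBR ligases, which form their own bond with it. It measured 119, 148 and 134 CPM across control replicates 1 to 3 and 86.5, 90.9 and 79.7 CPM across the knockdown replicates, without overlap (1.56-fold lower, adjusted p = 7.77e-04). Of 6 tested genes of the linear-chain and RBR ligases, 1 fell, beside 16.1% called lower among all genes tested. CYLD, which cuts linear and lysine 63 chains, fell 1.42-fold, from 41.5 ± 2.75 to 29.4 ± 2.92 CPM (adjusted p = 0.00557).

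The 3 tested lysine 48 and cullin enzymes did not pass. UBE2R2, which extends chains on cullin ligases, measured 74.2, 78.8 and 73.3 CPM (control) against 89.8, 85.6 and 87.3 CPM (knockdown), separate groups with a 1.16-fold difference (adjusted p = 0.104). Its close relative CDC34, an E2 outside the UBE2 naming, fell 1.70-fold, from 92.7, 124 and 113 CPM to 74.5, 54.2 and 64.7 CPM (adjusted p = 0.00109). UBE2K was 1.14-fold lower without overlap (adjusted p = 0.171), and UBE2G1 was at 98.1 ± 3.59 and 97.1 ± 5.73 CPM. Besides CDC34, 3 others of 8 E2 or E2-like genes with other names fell: the autophagy E2 ATG3 (1.53-fold), AKTIP (1.46-fold) and, named after its values were seen, UEVLD (1.32-fold). Of all genes tested, 16.1% were called lower and 16.6% higher. ATG10, the E2 that carries ATG12, rose 1.67-fold, from 10.6, 8.59 and 7.34 CPM to 14.4, 14.0 and 15.3 CPM (adjusted p = 0.00326). The UEVLD call ended without control replicate 3 (0.0917) or knockdown replicate 1 (0.0817) or 3 (0.0937).

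The remaining members held both the largest fall and the smaller rise. UBE2Q1 measured 70.6, 86.5 and 83.1 CPM across control replicates 1 to 3 and 39.3, 35.2 and 37.4 CPM across the knockdown replicates. Each knockdown library was far below each control library, with means of 80.1 ± 8.33 and 37.3 ± 2.08 CPM (2.14-fold lower, SE of the log2 fold change 0.113, adjusted p = 1.93e-05). Its paralog UBE2Q2 measured 22.2, 19.6 and 20.2 CPM (control) against 13.1, 15.7 and 14.5 CPM (knockdown), also without overlap (1.44-fold lower, adjusted p = 0.00809). UBE2O, a large enzyme that works as E2 and E3 in 1 chain, measured 125, 128 and 126 CPM (control) against 190.1, 160.3 and 183 CPM (knockdown). The controls lay within a narrow band and all knockdown libraries above it (log2 fold change 0.50, SE 0.0978, adjusted p = 0.00205). UBE2H, the E2 of the CTLH ligase complex, was at 255 ± 8.19 and 239 ± 18.8 CPM and did not pass.

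**Figure D3:**
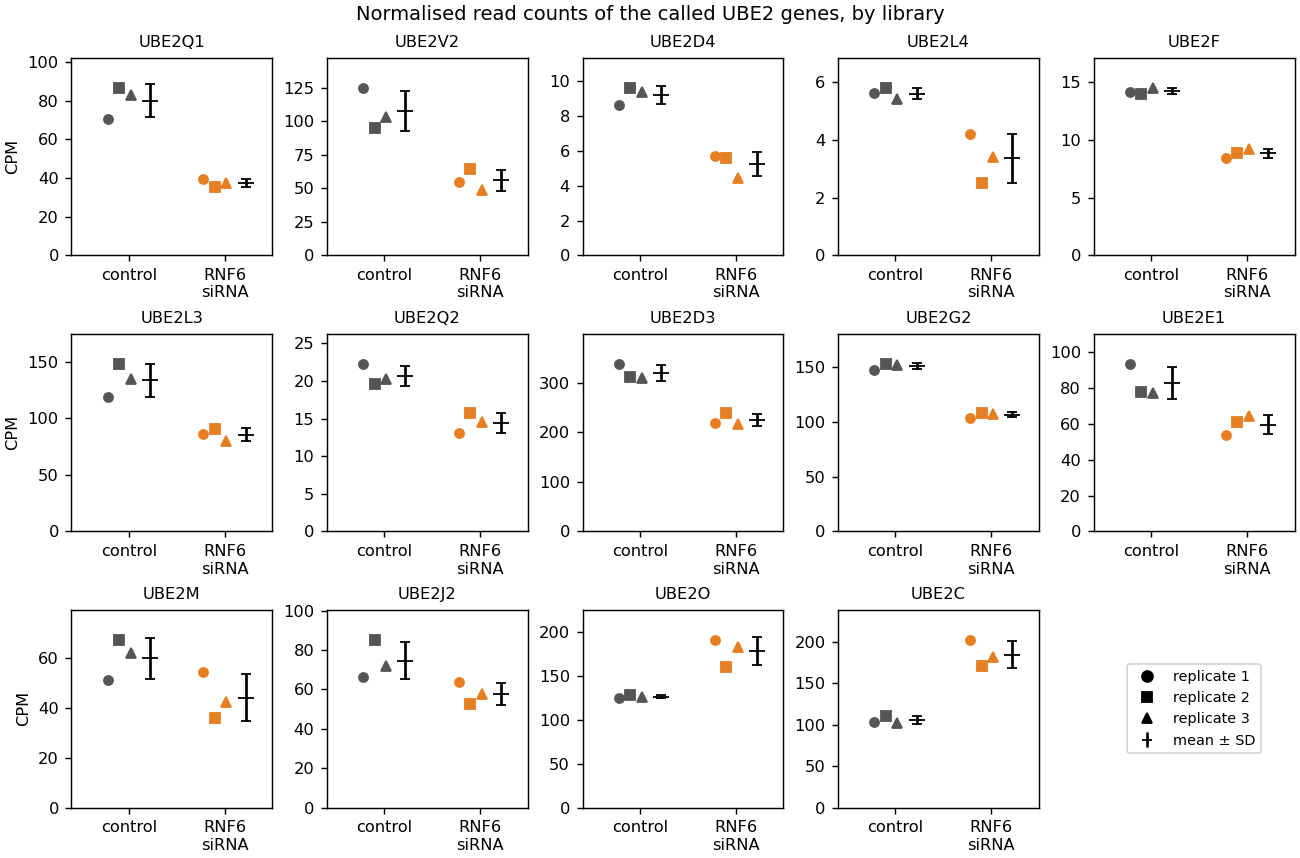
Normalised read counts (CPM, axes from 0) of the 14 called UBE2 genes in each library, with symbols for the replicate number and the mean ± SD of 3 libraries beside each group. The groups are apart in every panel except UBE2M, where knockdown replicate 1 at 54.2 CPM lies above control replicate 1 at 50.9 CPM.

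The other partner lists gave 1 to 3 calls each or none, beside 16.1% called lower and 16.6% called higher among all genes tested. Of 10 tested Fanconi genes, which UBE2T serves, 3 rose: FANCD2 (1.40-fold), FANCM (1.46-fold) and FANCG (1.28-fold). FANCD2, the protein that UBE2T and its ligase modify, went from 49.5, 39.2 and 42.8 CPM to 60.1, 59.0 and 64.1 CPM (adjusted p = 0.00619). The FANCG and FANCM calls both ended without control replicate 3 (0.109 and 0.0555) or knockdown replicate 3 (0.0912 and 0.0680), FANCG also without control replicate 1 (0.0773) or knockdown replicate 1 (0.122), and FANCM without knockdown replicate 2 (0.0568). The list for lysine 63 chains and DNA damage held 15 tested genes, not all of them ligases. In it TRAF6, a ligase that works with UBE2N, rose 1.64-fold, from 12.9 ± 1.27 to 21.1 ± 1.02 CPM. UIMC1, not itself a ligase, fell 1.38-fold. The UIMC1 call ended without knockdown replicate 3 (0.0634), and 3 genes of that list were higher without control replicate 1. Of 11 CTLH genes RANBP9 (1.26-fold) and RANBP10 (1.24-fold) fell, and both calls ended without control replicate 3 or knockdown replicate 1 or 3. That of RANBP10 ended also without control replicate 2 or knockdown replicate 2. It was lost too with DESeq2 (adjusted p = 0.0622), upper-quartile scaling (0.0625) and no low-count filter (0.0687). MOCS3 was the 1 called gene of 10 E1 enzymes (1.49-fold lower), and its call ended without control replicate 3 (0.0629) or knockdown replicate 3 (0.0612). The 4 ISG15 pathway genes did not pass, and 1 was lower without control replicate 1. Over all lists, 29 of 134 tested partner genes were lower and 7 higher, beside 16.1% lower and 16.6% higher among all genes tested, with a median log2 fold change of -0.09 beside 0.01. Without control replicate 1, 36 were lower and 14 higher, without control replicate 3, 21 and 4, and without knockdown replicate 3, 18 and 4.

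**Figure D4:**
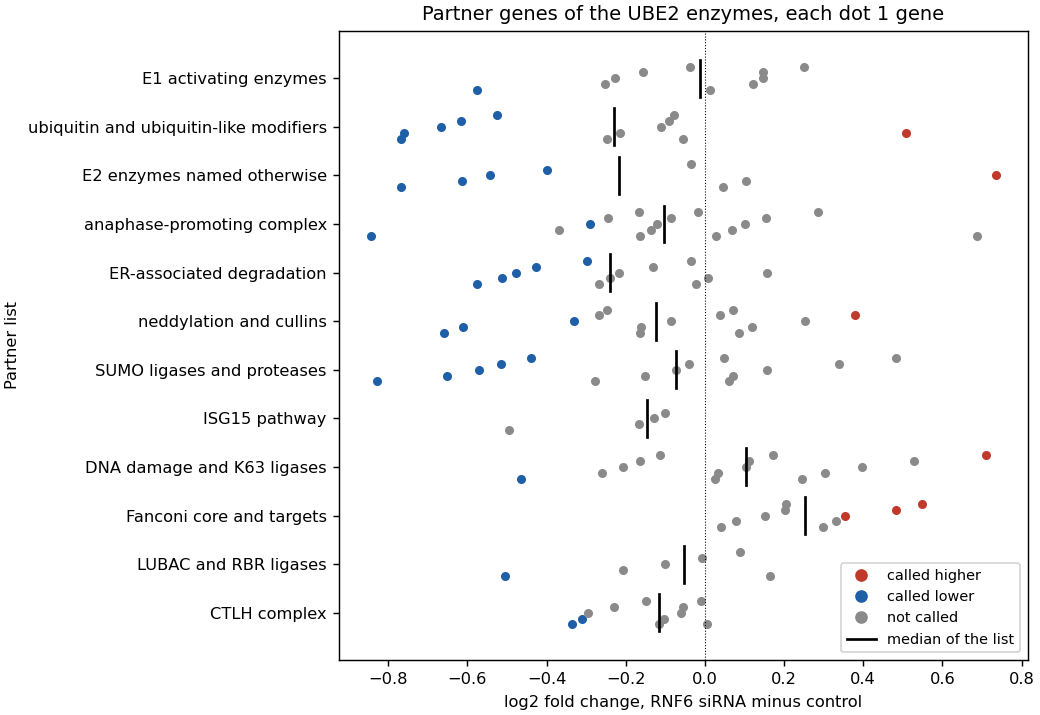
Log2 fold change (knockdown minus control, x axis) of each tested gene in the 12 partner lists, 1 dot per gene, coloured by call, with a bar at the median of each list. The Fanconi list has its median at 0.25 and 3 genes called higher, and the list of degradation at the endoplasmic reticulum has its median at -0.24 and 5 called lower. Of all genes tested, 16.6% were called higher and 16.1% lower.

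Several UBE2 genes have pseudogene copies that drew reads, so the copies were set beside their parents. UBE2SP1 had 65.2% as many reads as UBE2S and measured 49.5, 89.3 and 70.8 CPM (control) against 81.0, 58.1 and 65.9 CPM (knockdown). The 6 libraries stood in the same order for UBE2SP1 as for UBE2S, lowest in control replicate 1 and highest in control replicate 2. Exact words of 50 bases shared with other genes make up 15.9% of the transcript words of UBE2S. UBE2D3P1 fell with UBE2D3, from 20.6 ± 3.37 to 12.8 ± 1.72 CPM (SD, n = 3, log2 fold change -0.68, edgeR adjusted p = 0.00501). It shares 24.3% of its words with other genes, UBE2D3 among them, so its row may hold reads of UBE2D3. UBE2L4 shares 21.2% of its words with other genes and fell like its parent UBE2L3, from 5.62, 5.80 and 5.42 CPM to 4.22, 2.50 and 3.40 CPM (1.62-fold, adjusted p = 0.0217). That call ended without control replicate 3 (0.0545), without knockdown replicate 2 (0.0697) or 3 (0.0775) and with DESeq2 (0.0519), between 0.0114 and 0.0775 over all alternatives.

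For UBE2V1 the copy outweighed the parent: UBE2V1P2 had 1275 reads over the 6 libraries and UBE2V1 had 279. UBE2V1P2 was at 22.3 ± 2.07 and 24.5 ± 1.03 CPM and did not pass. When copies and read-through rows were added to their parents, UBE2V1 measured 31.3, 23.1 and 24.5 CPM (control) against 30.2, 32.2 and 30.8 CPM (knockdown) (log2 fold change 0.25, adjusted p = 0.170). Summed in this way UBE2D3, UBE2L3, UBE2F, UBE2M, UBE2V2 and UBE2C kept their calls, with log2 fold changes of -0.52, -0.65, -0.70, -0.44, -0.94 and 0.81. UBE2Q2 lost its call (log2 fold change -0.35, adjusted p = 0.0549). Exact 50-base words shared with other genes make up only 0.245% of those of UBE2Q2. Its sum thus adds reads of rows unlike it and cannot decide on the fall of UBE2Q2 alone. UBE2Q2P1 was at 2.81 ± 0.726 CPM in control and 3.86 ± 0.572 CPM after knockdown (adjusted p = 0.170).

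**Figure D5:**
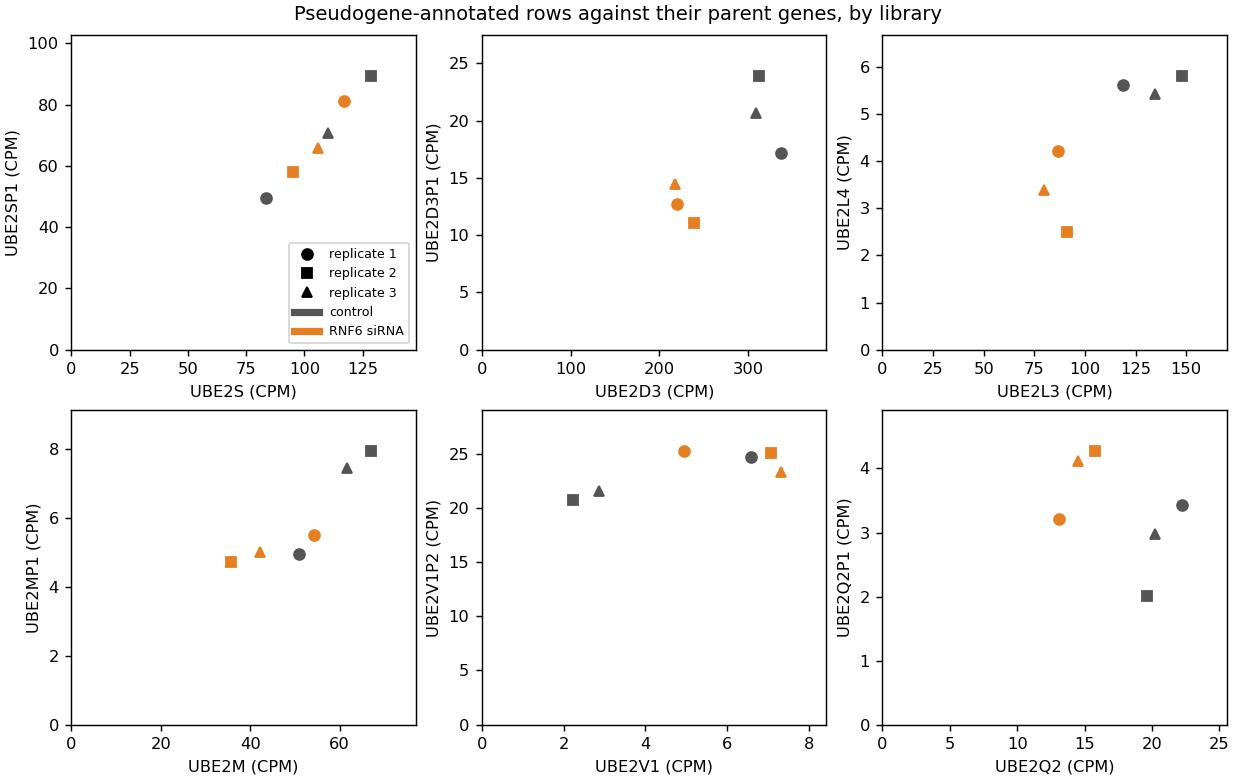
Normalised read counts (CPM) of 6 pseudogene-annotated rows (y axes) against their parent genes (x axes), 1 symbol per library, grey for control and orange for knockdown. UBE2SP1 and UBE2S put the 6 libraries in the same order, from 49.5 and 83.5 CPM in control replicate 1 to 89.3 and 128 CPM in control replicate 2.

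Inside the groups, some members ordered the libraries alike. This order and its reverse were read from these same data and also occurred outside the family. UBE2S, UBE2M, UBE2J2, UBE2L6, UBE2O and UBE2Q1 were lowest in control replicate 1 and highest in control replicate 2, with control replicate 3 between, and rose from knockdown replicate 2 over 3 to 1. UBE2W, UBE2D1, UBE2K, UBE2N and UBE2Q2 had the reverse order in both groups. The first order was seen for 6 of 33 members and 13.5% of all genes tested, the reverse for 5 of 33 and 12.1%.

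Promoters were searched for letters known from cell-cycle genes: the element TTTGAA or TTCGAA, the box CCAAT and the E2F-like word TTTCGCG, on both strands. RefSeq windows on GRCh38.p14, from 250 bases before to 50 after each start, were matched for 25 of the 33 tested members, which had 37 windows because some members have several starts. Those not matched included UBE2B, UBE2C, UBE2H, UBE2L4, UBE2Q1, UBE2V2 and UBE2W. TTTGAA was found for UBE2F and UBE2T (15.2% of all 35116 promoter windows hold it), TTCGAA for none (1.45%), and TTTCGCG for UBE2F (1.32%). CCAAT was found for 8 members, UBE2D2, UBE2D3, UBE2E1, UBE2E3, UBE2F, UBE2S, UBE2T and UBE2Z, in 10 of the 37 member windows, and in 34.6% of all windows. In UBE2F the words TTTGAA and TTTCGCG lie side by side without overlap. Of these 8, UBE2D3, UBE2E1 and UBE2F fell and the other 5 did not pass. The stretches below show 1 called and 1 uncalled gene for the rarer elements and 1 of each for CCAAT, read 5′ to 3′ on the gene's strand, with the searched word (or its reverse complement ATTGG) in capitals.
UBE2F, chr2:237966908-237966958, plus strand, word at -84 from the start: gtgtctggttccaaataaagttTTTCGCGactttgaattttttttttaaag
UBE2T, chr1:202342062-202342111, minus strand, word at -153: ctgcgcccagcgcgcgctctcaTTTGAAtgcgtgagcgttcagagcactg
UBE2D3, chr4:102868897-102868945, minus strand, word at -28: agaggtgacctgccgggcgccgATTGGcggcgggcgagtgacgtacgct
UBE2S, chr19:55407953-55408001, minus strand, word at -191: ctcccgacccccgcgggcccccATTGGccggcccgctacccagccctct
A match describes the reference letters and is no measure of binding, and no binding was measured here.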

How the data were processed

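RNA sequencing libraries were made from total RNA of HT29 cells with an Illumina TruSeq kit, 3 per group. The authors deposited 1 table of raw counts by gene symbol per library. TopHat2 2.0.11, HTSeq and hg19 (GRCh37) are the aligner, counter and build named, per the submitters' processing notes. Neither strand setting nor annotation release is given in the sources used here, so reads of antisense or overlapping genes cannot be told apart. Rows that name no gene held 27.3% to 29.4% of reads and were left out.

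Counts were fitted with edgeR 4.0.16 (R 4.3.3): filterByExpr (minimum count 10, total 15), TMM factors of 0.985 to 1.02, a robust quasi-likelihood model with the group as its only term, and Benjamini-Hochberg adjustment over 14685 genes. Calls needed an adjusted p under 0.05 in this edgeR test, the source of all adjusted p-values printed without a tool. Positive log2 fold changes mean higher with RNF6 siRNA. The code was tested on simulated counts with 200 changed genes among 14685. It recovered 11.6% of 1.3-fold, 51.6% of 1.5-fold and 84.4% of 2-fold changes. The real data held far more called genes than that, so these shares are only a guide. A gene that did not pass is not shown to be unchanged. Alternatives were upper-quartile and RLE scaling, no filter or at least 1 CPM in 3 libraries, no robust estimates, DESeq2 1.42.0, limma-voom (limma 3.58.1), the replicate number as a block, each library left out and, added after seeing the data, copies summed with parents.

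Members and partner lists were chosen with earlier results of these data known. Called members are given by library, and up to 4 called genes with the smallest adjusted p are named per partner list. Exon lengths, overlaps and shared 50-base words are from GENCODE 29 on GRCh38, another build than the counts, so no coordinate was joined to them. Values of a few genes are not reported here, though counts over members and lists include them.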

Additional observations from a re-analysis of the deposited data

How the results depend on the processing

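Of the 14 called UBE2 genes, 9 stayed past the threshold in the same direction under all 15 alternatives that gave a value: UBE2C, UBE2O, UBE2Q1, UBE2V2, UBE2D3, UBE2D4, UBE2F, UBE2G2 and UBE2L3. Of 19 members not called, 2 (UBE2V1 and UBE2L6) passed under some alternative and 6 near 0 changed sign without passing: with upper-quartile scaling UBE2B was at 0.018 and UBE2G1 at 0.0034. Over the libraries left out, log2 fold changes of these 6 ran from -0.075 to 0.039 for UBE2B, from -0.090 to 0.056 for UBE2E2, from -0.062 to 0.017 for UBE2G1, from -0.18 to 0.13 for UBE2S, from -0.12 to 0.038 for UBE2T and from -0.095 to 0.18 for UBE2W. Leaving out 1 library gave 9 to 12 lower and 2 to 3 higher members, 18 to 36 lower and 4 to 14 higher partner genes, and 1478 to 2967 lower and 1514 to 2910 higher genes of all tested, beside 2365 and 2442 with all libraries. The lowest of these came without control replicate 3 (1514 higher, 1595 lower) and without RNF6 siRNA replicate 3 (1529 and 1478).

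Labels give both groups replicate numbers 1 to 3 but do not say that a number pairs libraries. Deviations from the group means correlated at -0.46, -0.25 and 0.05 for numbers 1, 2 and 3. Between unlike numbers they correlated from -0.24 (control 2 with knockdown 3) to 0.46 (control 2 with knockdown 1), above any pair of like number. With the replicate number as a block, 7 UBE2 genes were lower and 2 higher, 19 partner genes were lower and 4 higher, and 1321 of all tested genes were lower and 1421 higher. Under this block UBE2E1 (adjusted p = 0.0579), UBE2J2 (0.137), UBE2L4 (0.0567), UBE2M (0.129) and UBE2Q2 (0.0510) did not pass. The block uses residual degrees of freedom, and the cause of the lower counts was not tested.

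The least counted tested members, UBE2L4, UBE2V1 and UBE2D4, had 245, 279 and 387 reads over the 6 libraries. Calls of UBE2L4 and UBE2V1 varied between alternatives and that of UBE2D4 held in all 15; the part of depth was not tested.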
